A study of Homo sapiens with 33 samples.

Results

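Untreated Nalm6 cells appear in the series as 2 separate sets, and the results below compare those sets with each other. The members were chosen by sample title: 3 samples titled as the untreated controls of the dexamethasone experiment (called the dexamethasone set) and 3 samples titled as the untreated controls of the other Nalm6 experiments (called the other set), 6 of 33 samples in all. No sample of either set received a drug. The series as a whole asks how glucocorticoid and canonical Wnt signaling act on each other in acute lymphoblastic leukemia, by RNA sequencing of Nalm6, of a Nalm6 derivative labelled TLE1 KO, for the Groucho-family co-repressor TLE1, and of the T-cell leukemia line CEM. Treated Nalm6 and TLE1 KO samples used for side-by-side values had received a glucocorticoid for 24 h. It was 100 nM dexamethasone in the dexamethasone set and 5 µM prednisolone in the other set.

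Nalm6 is an established human B-cell precursor leukemia line, and both sets are the parental line with no engineered allele. The labels give the same growth medium to both, RPMI-1640 with charcoal-stripped serum, glutamine and antibiotics. Charcoal stripping removes steroid hormones from serum. Culture dates, passage numbers, cell densities and sequencing runs are not given in the labels. The files of the sets carry different naming patterns. Culture, RNA extraction, library preparation and sequencing therefore cannot be told apart as sources of a difference between the sets. The series text describes 3 independent experiments for the other set's CHIR-99021 experiment. For the dexamethasone set the labels give replicate numbers only, so p-values measure the spread between these samples, which may be technical.

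As background, a leukemia line in suspension culture depletes its medium and oxygen as it becomes dense. When oxygen falls, the transcription factor HIF1A is stabilised and raises transcription of glucose transporters, glycolytic enzymes, BNIP3-family mitophagy genes and VEGFA. MYC drives ribosome biogenesis and nucleotide synthesis in growing cells, FOXO factors act when growth signals weaken, and ATF4 induces amino acid transport and synthesis when amino acids run short. B-cell precursors are marked by the surrogate light chain, the RAG recombinase and the early B-lineage factors EBF1 and PAX5.

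Gene totals were 32501109 to 45427396 counts per sample in the dexamethasone set and 49011382 to 61930057 in the other set, so the other set was sequenced more deeply. Of 17478 genes tested, 8774 (50.2%) differed between the sets with edgeR's quasi-likelihood test at an adjusted p under 0.05. Of these, 4510 (25.8% of genes tested) were higher and 4264 (24.4%) lower in the dexamethasone set. A log2 fold change of at least 1 in size was reached by 1236 genes (7.07%), of which 334 (1.91%) were higher and 902 (5.16%) lower. Among the 12041 protein-coding genes tested, 53.9% differed, 32.3% higher and 21.6% lower, but 388 (3.22%) passed the 2-fold mark. The median absolute log2 difference between samples was 0.06 to 0.14 within a set and 0.22 to 0.25 across the sets. The difference between the sets was thus widespread and mostly small, and the shares just given are the background against which each gene list below is read. Replicate 1 of the dexamethasone set stood somewhat apart: its counts differed from those of replicates 2 and 3 with a chi-square per degree of freedom of 9.73 and 16.7, against 2.82 between those 2. Without it 9378 genes differed, 1389 of them at least 2-fold. All log2 fold changes are the dexamethasone set minus the other set, each with its standard error (SE), and levels are counts-per-million values (CPM) of the sample's gene total. Fold changes rest on library sizes scaled by the trimmed mean of M-values, so a gene can be lower in CPM with a log2 fold change near 0. By CPM alone, the sets did not overlap in 58.1% of genes, 22.7% higher and 35.5% lower.

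The B-lineage identity of both sets was clear. PAX5, the B-lineage commitment factor, stood at 662, 742 and 707 CPM in the dexamethasone set and at 704, 709 and 710 CPM in the other set, and it did not pass the test (log2 fold change 0.05 ± 0.04, edgeR adjusted p = 0.302). RAG1, a subunit of the recombinase, stood at 1307, 1205 and 1224 CPM against 1167, 1204 and 1238 CPM (log2 fold change 0.11 ± 0.04, edgeR adjusted p = 0.0482), and lost its call in 10 of 20 alternatives. Of the 34 B-cell precursor genes tested, 20 were higher, 7 lower and 7 not called, with a median log2 fold change of 0.20 against 0.04 over all protein-coding genes tested.

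The largest rises in that list were in genes of the B-cell receptor and of B-cell transcription. VPREB3 (ENSG00000128218.8_1), which encodes a protein related to the surrogate light chain, stood at 33.3, 38.7 and 37.9 CPM in the dexamethasone set and at 12.8, 11.8 and 12.2 CPM in the other set. The sets did not overlap, and the log2 fold change was 1.64 ± 0.06 (edgeR adjusted p = 4.82e-09). CD22, an inhibitory co-receptor of the B-cell receptor, stood at 111, 122 and 123 CPM against 63.7, 57.1 and 57.3 CPM (log2 fold change 1.06 ± 0.05, edgeR adjusted p = 2.58e-08). POU2AF1, a co-activator of octamer-binding factors in B cells, was at 46.2 ± 2.97 CPM against 19.8 ± 0.780 CPM (SD, n = 3). IRF8, a transcription factor of lymphoid and myeloid cells, was at 6.71 ± 0.168 CPM against 2.79 ± 0.106 CPM. Their log2 fold changes were 1.28 and 1.33.

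Surrogate light chain and receptor genes did not all move together. VPREB1 was at 263, 248 and 246 CPM against 203, 199 and 206 CPM (log2 fold change 0.38 ± 0.04, edgeR adjusted p = 1.17e-05). Its partner IGLL1 was at 590, 650 and 676 CPM against 598, 619 and 649 CPM, and these ranges overlapped (edgeR adjusted p = 0.111). IL7R, the interleukin-7 receptor chain, was higher by 0.32 ± 0.04 on the log2 scale. PAX5 above and CD79A and DNTT were singled out after their values were seen. CD79A, the signaling chain of the receptor, was at 105, 122 and 126 CPM against 61.5, 57.4 and 61.1 CPM (log2 fold change 1.03 ± 0.06). DNTT, the terminal transferase that adds nucleotides at recombination joints, went the other way, at 373, 465 and 478 CPM against 662, 652 and 617 CPM (log2 fold change -0.49 ± 0.07, edgeR adjusted p = 0.00011).

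Genes of later B-cell and plasma cell stages included the largest rise. JCHAIN (ENSG00000132465.12_1), the joining chain of secreted IgM and IgA, stood at 10.6, 8.03 and 7.78 CPM in the dexamethasone set and at 0.872, 0.530 and 0.557 CPM in the other set. Its log2 fold change, 3.80 ± 0.18 (edgeR adjusted p = 2.2e-08), was the highest among the named rises, which have a mean log2 CPM of at least 1. MS4A1, which encodes CD20, was at 1.94, 2.43 and 1.61 CPM against 0.371, 0.0612 and 0.261 CPM (log2 fold change 3.08 ± 0.32, edgeR adjusted p = 1.04e-05). CD40 and CD86, a co-stimulatory receptor and ligand, were also higher but stayed under 0.5 CPM in every sample of both sets. Of the 14 genes of this list that were tested, 7 were higher and 4 lower. A gene near the floor in the other set, such as CD40, could pass the filter only through the dexamethasone set, where it was higher. With at least 10 counts required in every sample, 3 were higher and 4 lower, so the count of 7 depends on the filter. The list's median of 0.34 was 0.04 with at least 10 counts required in every sample and 1.30 with no filter on low counts. The immunoglobulin mu chain IGHM, looked up after its value was seen, was measured at 1476, 1554 and 1620 CPM and at 1513, 1554 and 1584 CPM. In bulk RNA, more cells of a later stage and more RNA per cell cannot be told apart.

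**Figure D1:**
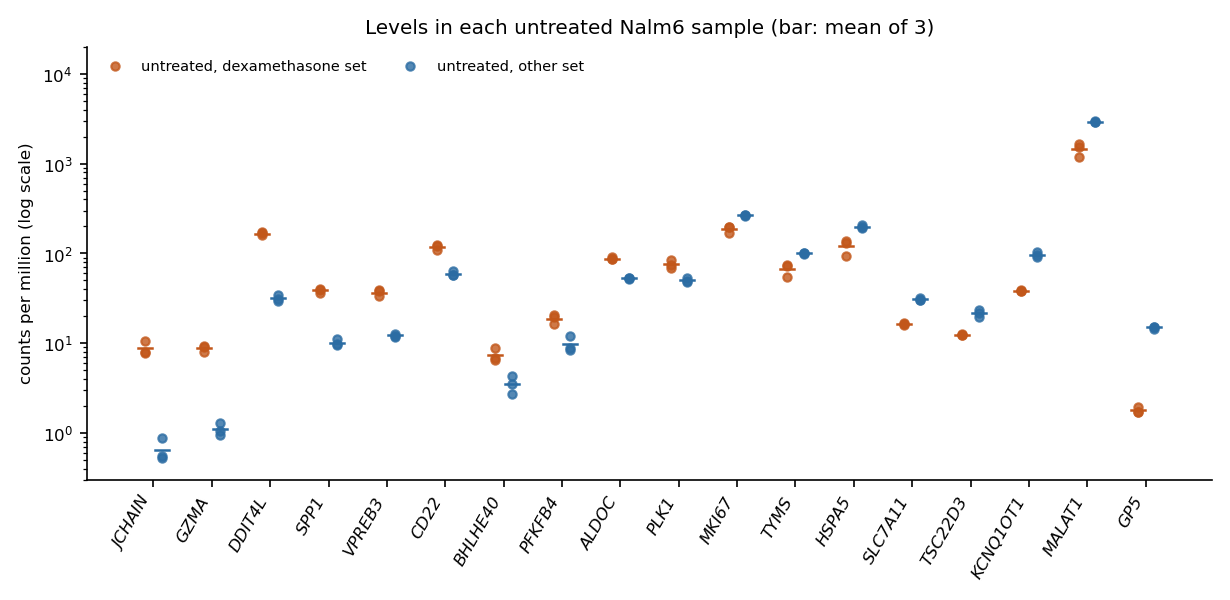
Levels of 18 genes in each of the 6 untreated Nalm6 samples, in CPM on a log axis, with points for samples and short bars for the mean of 3. JCHAIN runs from 7.78 to 10.6 CPM in the dexamethasone set and from 0.530 to 0.872 CPM in the other set, whereas MALAT1 and GP5 lie lower in the dexamethasone set.

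Outside the lists, the genes with the largest rises came from several functions. DDIT4L (ENSG00000145358.6_1), a relative of the mTORC1 inhibitor DDIT4, stood at 172, 168 and 159 CPM against 34.6, 31.5 and 29.9 CPM (log2 fold change 2.44 ± 0.06, edgeR adjusted p = 1.12e-10). GZMA, a granule protease of cytotoxic lymphocytes, was at 8.78 ± 0.623 CPM against 1.09 ± 0.170 CPM (log2 fold change 3.06 ± 0.12). CD96, a surface receptor of T and natural killer cells, was at 9.84 ± 0.552 CPM against 2.34 ± 0.213 CPM. SPP1, the secreted phosphoprotein osteopontin, was at 38.7 ± 2.04 CPM against 10.1 ± 0.765 CPM. These 4 genes did not overlap between the sets, which was a condition of their choice. Of all genes tested, 58.1% did not overlap.

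Among the remaining genes of the 12 largest rises, SPTLC3, a subunit of serine palmitoyltransferase in sphingolipid synthesis, PI16, a secreted peptidase inhibitor, and CCDC88B rose by 2.60, 3.05 and 2.45 on the log2 scale. CNN2, an actin-binding calponin, PLXNB2, a semaphorin receptor, and ARHGEF40, a guanine nucleotide exchange factor, rose by 1.96, 1.94 and 1.89. The last of the 12 is ENSG00000287719, which rose by 2.60.

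The 12 largest falls were mostly non-coding. GP5 (ENSG00000178732.5_1), the platelet glycoprotein V gene, was the single protein-coding gene among them, at 1.70, 1.72 and 1.93 CPM in the dexamethasone set and 14.4, 15.3 and 15.3 CPM in the other set (log2 fold change -3.01 ± 0.08, edgeR adjusted p = 7.46e-10). LINC01226 fell by 2.43 and ENSG00000283265, a long intergenic RNA, fell by 3.34 on the log2 scale. The other 9 comprise 4 sense-intronic genes, 3 genes of the GENCODE class TEC, the antisense gene ENSG00000283907 and the ribosomal RNA pseudogene RNA5-8SP6. The last 2 are uncertain: ENSG00000283907 ran from 31.9 to 156 CPM within the other set, and RNA5-8SP6 has near-identical copies.

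Hypoxia genes were more often higher than lower, without a common direction. Of 27 HIF targets 23 were tested, and 12 were higher, 3 lower and 8 not called, with a median log2 fold change of 0.17. The median was 0.11 without replicate 1 of the other set (9 higher, 4 lower) and 0.12 (9 higher, 4 lower) with the length trend removed alone. Their summed level overlapped between the sets, at 1197 to 1246 CPM against 1170 to 1254 CPM. BHLHE40, a transcriptional repressor, stood at 6.56, 6.89 and 8.90 CPM in the dexamethasone set and at 2.75, 3.51 and 4.35 CPM in the other set (log2 fold change 1.13 ± 0.15, edgeR adjusted p = 8.03e-05). PFKFB4, which makes the glycolytic activator fructose 2,6-bisphosphate, stood at 20.5, 16.2 and 19.8 CPM against 8.75, 8.35 and 12 CPM (log2 fold change 1.02 ± 0.12, edgeR adjusted p = 3.67e-05). BNIP3L, a mitophagy receptor, was higher by 0.48 ± 0.06 and P4HA2, a collagen prolyl hydroxylase, by 0.47 ± 0.10 on the log2 scale.

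The angiogenic factor VEGFA, among the best known HIF targets, went the other way. It stood at 59.5, 57.8 and 62.4 CPM in the dexamethasone set and at 75.8, 85.8 and 88.4 CPM in the other set, with no overlap (log2 fold change -0.41 ± 0.06, edgeR adjusted p = 8.12e-05). The glucose transporter SLC2A1 stood at 66.1, 72.8 and 78.1 CPM against 73.5, 77.8 and 77.7 CPM, and its ranges overlapped (log2 fold change -0.02 ± 0.05, edgeR adjusted p = 0.792). ADM, CA9, EGLN3 and LOX, named after their values were seen, passed no filter on low counts and were not tested. HIF1A itself was at 167, 156 and 155 CPM against 158, 150 and 154 CPM, and its log2 fold change of 0.11 (edgeR adjusted p = 0.0392) lost its call in 9 of 20 alternatives. Of the other 6 HIF regulators, EPAS1 (0.59 ± 0.13), EGLN2 (0.33 ± 0.05) and ARNT (0.15 ± 0.04) were higher and HIF1AN, the asparagine hydroxylase that blocks HIF activity, was lower (-0.12 ± 0.04, but 0.06 with the length trend removed).

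The promoter windows of 3 named HIF targets, which differ in response, are shown. Only windows that hold the core of the hypoxia response element were eligible, so that all 3 carry it was a condition of the choice. No target that was lower is among them. The core searched was ACGTG or GCGTG on either strand (so also CACGT and CACGC), in windows of 300 bases from RefSeq (GRCh38.p14), 250 bases before to 50 after the gene start, written 5′ to 3′ on the gene's strand with each core in capitals. BHLHE40 (chr3:4979187-4979486, plus strand) rose, PFKFB4 (chr3:48556754-48557053, minus strand) rose, and SLC2A1 (chr1:42958819-42959118, minus strand) did not pass the test.
BHLHE40: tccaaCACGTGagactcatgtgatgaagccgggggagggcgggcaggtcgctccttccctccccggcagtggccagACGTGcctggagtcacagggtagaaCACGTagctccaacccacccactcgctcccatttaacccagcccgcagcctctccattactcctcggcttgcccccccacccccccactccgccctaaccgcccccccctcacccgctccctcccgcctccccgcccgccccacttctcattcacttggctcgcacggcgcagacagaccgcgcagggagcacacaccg
PFKFB4: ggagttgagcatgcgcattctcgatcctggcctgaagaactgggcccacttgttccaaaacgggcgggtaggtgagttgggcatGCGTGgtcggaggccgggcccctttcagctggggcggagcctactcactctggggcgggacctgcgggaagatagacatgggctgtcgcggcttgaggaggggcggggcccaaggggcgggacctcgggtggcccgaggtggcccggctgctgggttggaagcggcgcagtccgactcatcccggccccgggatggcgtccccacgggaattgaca
SLC2A1: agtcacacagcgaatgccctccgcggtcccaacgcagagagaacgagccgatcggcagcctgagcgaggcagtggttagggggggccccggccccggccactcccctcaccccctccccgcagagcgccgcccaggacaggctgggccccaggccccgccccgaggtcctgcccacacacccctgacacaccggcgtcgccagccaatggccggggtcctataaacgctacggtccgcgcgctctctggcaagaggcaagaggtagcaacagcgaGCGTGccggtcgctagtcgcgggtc
The window of BHLHE40 holds 4 cores, with the palindrome CACGTG counted on each strand, and those of PFKFB4 and SLC2A1 hold 1 each. Of 27 HIF targets 22 matched a window, and 18 of them (81.8%) held a core, against 62.6% of the 10808 windows of genes tested and 48.4% of all 35116 windows. A core was found in 7 of the 8 matched windows of targets that were higher, in 2 of the 2 of targets that were lower, and in 6 of the 8 of targets tested and not called. A match describes the letters of the window and is not evidence of binding.

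Glycolysis was higher at several steps but not at lactate formation. Of 18 genes tested, 11 were higher and 2 lower, with a median log2 fold change of 0.22, and their summed level was 11133 to 11220 CPM against 9861 to 10019 CPM. ALDOC, an aldolase, stood at 90.3, 86.3 and 87.0 CPM against 51.5, 53.1 and 53.4 CPM (log2 fold change 0.80 ± 0.04, edgeR adjusted p = 2.97e-08). GAPDH (0.37 ± 0.04), PGAM1 (0.38 ± 0.04), ALDOA (0.35 ± 0.08) and PGK1 (0.33 ± 0.04) were also higher. LDHA, which converts pyruvate to lactate, stood at 489, 543 and 546 CPM against 590, 578 and 589 CPM (log2 fold change -0.09 ± 0.04, edgeR adjusted p = 0.0782). HK2, the first enzyme of the pathway, was lower (log2 fold change -0.10 ± 0.03, edgeR adjusted p = 0.0317), and lost its call in 6 of 20 alternatives.

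Most nuclear genes of oxidative phosphorylation rose. Of 76 nuclear genes of the respiratory chain, 57 (75.0%) were higher and 1 was lower, with a median log2 fold change of 0.25. COX6B1, a subunit of cytochrome c oxidase, stood at 154, 149 and 139 CPM against 104, 104 and 99.4 CPM (log2 fold change 0.59 ± 0.04, edgeR adjusted p = 8.5e-07). NDUFS5 and NDUFA4 were higher by 0.51 and 0.44, and ATP5F1D, a subunit of ATP synthase, by 0.49. These are short transcripts, and the set difference moved with transcript length, as given below. With the trends over GC content and length removed the list's median was 0.27.

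Among the 13 protein genes of the mitochondrial genome, 7 were higher and 2 lower, with a median log2 fold change of 0.33. MT-CYB, cytochrome b, stood at 184, 281 and 286 CPM against 100, 109 and 105 CPM (log2 fold change 1.32 ± 0.12, edgeR adjusted p = 4.09e-06). MT-ATP6, a subunit of ATP synthase, was at 101, 163 and 182 CPM against 80.8, 85.0 and 83.1 CPM. In both genes replicate 1 of the dexamethasone set lay lowest of its set. Without that sample the median of the 13 genes was 0.62, with 11 genes higher. MT-ND6, the one protein gene on the other mitochondrial strand, went the other way, at 28.4, 24.5 and 24.1 CPM against 54.7, 51.4 and 48.9 CPM (log2 fold change -0.94 ± 0.07, edgeR adjusted p = 5.92e-07).

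Lipid genes were higher as well. Of 23 genes of cholesterol synthesis and uptake, 17 were higher and 1 lower, with a median log2 fold change of 0.21. TM7SF2, a sterol reductase, stood at 22.3, 26.0 and 27.3 CPM against 14.4, 15.5 and 15.8 CPM (log2 fold change 0.78 ± 0.07, edgeR adjusted p = 3.64e-06). MVD, DHCR7 and MVK, enzymes of the same pathway, were higher by 0.43, 0.39 and 0.35. Of 8 LXR targets 5 were higher and none lower, led by the cholesterol exporter ABCA1 (0.67 ± 0.04) and the lipogenic factor SREBF1 (0.53 ± 0.05). The LXR median of 0.22 was 0.13 with the GC and length trends removed.

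Most mitosis genes were higher. Of 35 mitosis genes, 26 (74.3%) were higher and 1 was lower, with a median log2 fold change of 0.25. PLK1, a mitotic kinase, stood at 68.7, 73.8 and 84.3 CPM in the dexamethasone set and at 47.8, 49.9 and 53.4 CPM in the other set (log2 fold change 0.65 ± 0.07, edgeR adjusted p = 8.63e-06). HMMR, a spindle-associated protein, was higher by 0.64, AURKB by 0.53 and AURKA by 0.47, the last 2 being mitotic kinases. The one gene that was lower was MKI67, the proliferation antigen, at 171, 195 and 196 CPM against 268, 269 and 263 CPM (log2 fold change -0.45 ± 0.05, edgeR adjusted p = 9.53e-06).

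DNA replication genes leaned the other way. Of 43 tested, 4 were higher and 15 lower, with a median log2 fold change of -0.08. TYMS, thymidylate synthase, stood at 54.8, 73.4 and 74.1 CPM against 101, 99.6 and 102 CPM (log2 fold change -0.52 ± 0.08, edgeR adjusted p = 0.000257). MCM6, a subunit of the replicative helicase, was at 270, 300 and 299 CPM against 399, 384 and 388 CPM (log2 fold change -0.37 ± 0.04). UNG, uracil-DNA glycosylase, was lower (-0.33 ± 0.03), and CCNE1, cyclin E1, was higher by 0.31 ± 0.05. MCM2 did not pass the test, at 529, 549 and 575 CPM against 579, 576 and 588 CPM (edgeR adjusted p = 0.753). Counted without strand, 10 of the list were higher and 10 lower, and with the GC and length trends removed 3 were higher and 25 lower.

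MYC rose slightly while its targets had no common direction. MYC stood at 784, 880 and 909 CPM against 722, 741 and 752 CPM (log2 fold change 0.28 ± 0.05, edgeR adjusted p = 0.000472). Of 16 genes in the list of MYC and its targets, 6 were higher and 4 lower, and the median of 0.01 became -0.03 with the GC and length trends removed. CCND2, cyclin D2, was higher by 0.76 ± 0.09, whereas TERT, the telomerase reverse transcriptase, was at 25.5, 28.7 and 29.1 CPM against 38.1, 39.4 and 40.3 CPM (log2 fold change -0.44 ± 0.05). CAD, the first enzymes of pyrimidine synthesis, had a log2 fold change of -0.28 ± 0.05.

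Ribosome-related genes divided between assembly and the ribosome itself. Of 32 ribosome biogenesis genes, 3 were higher and 13 lower, with a median log2 fold change of -0.06, which was -0.13 with the GC and length trends removed (3 higher, 23 lower) and 0.01 when counted without strand. UTP20, a factor of small-subunit processing, stood at 75.3, 73.7 and 73.2 CPM against 105, 103 and 102 CPM (log2 fold change -0.42 ± 0.04, edgeR adjusted p = 2.81e-06), and POLR1A, the large subunit of RNA polymerase I, had a log2 fold change of -0.38 ± 0.04. Of 77 cytosolic ribosomal protein genes, 59 (76.6%) were higher and 1 was lower, with a median of 0.22. RPL41 stood at 732, 657 and 633 CPM against 491, 458 and 472 CPM (log2 fold change 0.57 ± 0.05). Ribosomal protein genes have many processed pseudogenes, so their counts are uncertain.

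**Figure D2:**
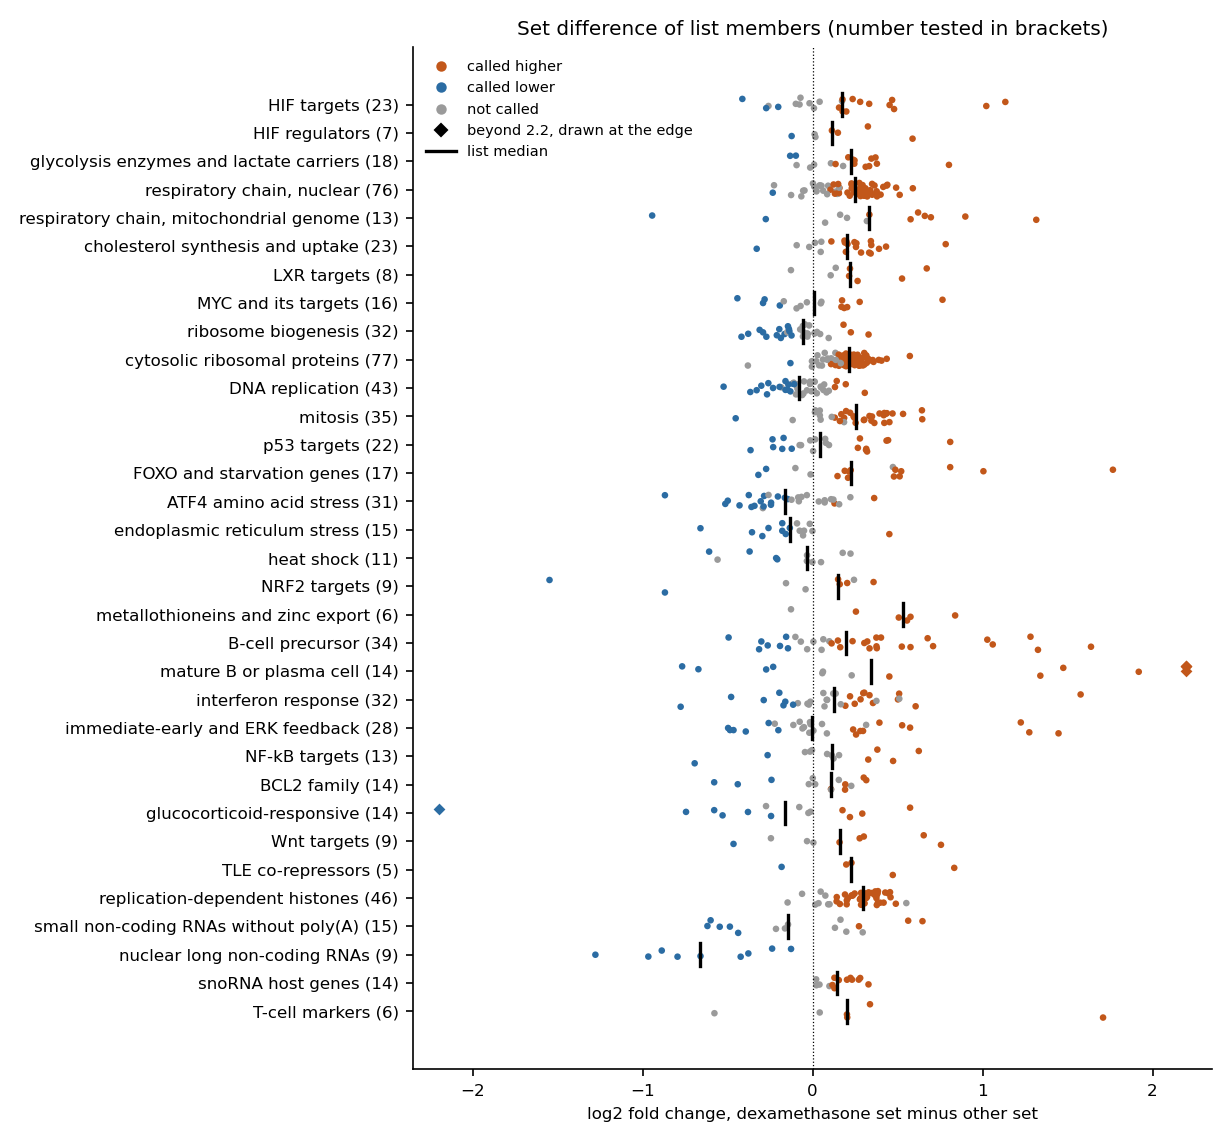
Log2 fold change between the untreated sets for every tested member of 33 gene lists with at least 5 tested members, coloured by call, with a black bar at the list median. Respiratory chain, ribosomal protein, mitosis and histone genes lie mostly right of 0, and ATF4, endoplasmic reticulum stress and nuclear RNA genes mostly left of it; 4 members beyond 2.2 are drawn as diamonds at the edge.

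Called genes of the ATF4 response were mostly lower in the dexamethasone set. Of 31 genes of the ATF4 amino acid response, 2 were higher and 15 (48.4%) lower, with a median log2 fold change of -0.16 that was -0.28 with the GC and length trends removed. SLC7A11, the cystine transporter, stood at 16.7, 16.2 and 15.8 CPM against 32.2, 30.2 and 30.4 CPM (log2 fold change -0.87 ± 0.05, edgeR adjusted p = 1.51e-07). PSAT1, an enzyme of serine synthesis, was at 129, 142 and 137 CPM against 202, 202 and 204 CPM (log2 fold change -0.51 ± 0.04). SLC7A1, an arginine transporter, and VLDLR, a lipoprotein receptor, had log2 fold changes of -0.43 and -0.50. ATF4 itself, looked up after its value was seen, stood at a log2 fold change of 0.07 and was not called.

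Several chaperone genes were also lower. Of 15 genes of endoplasmic reticulum stress, 8 (53.3%) were lower and 1 was higher. HSPA5, the chaperone BiP, stood at 94.4, 131 and 137 CPM against 209, 191 and 196 CPM (log2 fold change -0.66 ± 0.10, edgeR adjusted p = 0.000171). The gene that rose was XBP1, a transcription factor of the same response and of plasma cells, at 805, 792 and 782 CPM against 618, 597 and 601 CPM (log2 fold change 0.45 ± 0.04, edgeR adjusted p = 1.24e-06). Of 11 heat shock genes 4 were lower, 7 not called and none higher (median -0.03), led by the cytosolic chaperone HSP90AA1 at 506, 643 and 671 CPM against 976, 946 and 971 CPM (log2 fold change -0.61 ± 0.08). In HSPA5 and HSP90AA1, as in TYMS and MALAT1, replicate 1 of the dexamethasone set lay lowest.

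Other stress lists moved differently. Of 6 metallothionein and zinc genes tested, 5 were higher, led by MT1F at 9.55, 8.74 and 8.27 CPM against 5.17, 5.28 and 5.12 CPM (log2 fold change 0.84 ± 0.08, edgeR adjusted p = 5.27e-06), with MT2A, MT1G and MT1H at 0.58, 0.56 and 0.51. Metallothioneins bind zinc and copper, and near-identical copies make their counts uncertain. Of 17 FOXO and starvation genes 12 were higher and 2 lower, with a median of 0.22 that was 0.37 without replicate 1 of the dexamethasone set and 0.36 without replicate 3 of the other set. S1PR1, a receptor for sphingosine 1-phosphate, stood at 4.45, 4.03 and 5.13 CPM against 1.53, 1.51 and 1.13 CPM (log2 fold change 1.77 ± 0.14), and the repressor BCL6 was at 28.8 ± 1.03 CPM against 14.9 ± 1.84 CPM (1.00 ± 0.08).

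The p53 list had no common direction, with 8 of 22 higher and 6 lower. CDKN1A, the cyclin-dependent kinase inhibitor p21, was higher by 0.44 ± 0.04 and TP53INP1 by 0.81 ± 0.06, while MDM2, the ubiquitin ligase of p53, had a log2 fold change of -0.37 ± 0.04. Of 9 NRF2 targets 4 were higher and 2 lower, with OSGIN1 at -1.55 ± 0.26 among the latter. Of 14 BCL2 family genes 5 were higher and 3 lower, among the latter the pro-apoptotic BCL2L11 (BIM) at 16.8, 17.5 and 18.9 CPM against 28.5, 27.6 and 26.7 CPM (log2 fold change -0.58 ± 0.05, edgeR adjusted p = 5.14e-06). Beside it HRK was at -0.44 ± 0.07, BAX at 0.32 ± 0.05 and BAK1 at 0.30 ± 0.05.

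The pathways of the study itself differed between these untreated samples. Of 14 glucocorticoid-responsive genes tested, 4 were higher and 6 lower, with a median log2 fold change of -0.16, or -0.10 without replicate 1 of the dexamethasone set. TSC22D3, which encodes the glucocorticoid-induced leucine zipper, stood at 12.2, 12.2 and 12.5 CPM in the dexamethasone set and at 19.6, 23.4 and 21.9 CPM in the other set (log2 fold change -0.74 ± 0.07, edgeR adjusted p = 4.38e-06). FKBP5, a co-chaperone of the receptor, stood at 68.3, 90.2 and 91.8 CPM against 114, 114 and 111 CPM (-0.38 ± 0.08, edgeR adjusted p = 0.00194). P2RY14, a nucleotide-sugar receptor, was at 0.161 ± 0.0826 CPM against 1.09 ± 0.0530 CPM. NR3C1, the glucocorticoid receptor, stood at 232, 216 and 207 CPM against 243, 240 and 241 CPM and did not pass the test (edgeR adjusted p = 0.166). DUSP1, a phosphatase of MAP kinases, went up, at 185, 190 and 193 CPM against 128, 134 and 135 CPM (0.57 ± 0.04). For scale, TSC22D3 stood at 474 CPM after dexamethasone and at 348 CPM after prednisolone in Nalm6.

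Wnt targets were more often higher than lower, but not in every comparison. Of 16 genes in that list 9 were tested, with 5 higher and 1 lower and a median log2 fold change of 0.16. Counted without strand, the median was 0.07, with 5 higher and 3 lower. In the treated Nalm6 samples described below it was -0.12, with 3 higher and 3 lower. In the TLE1 KO samples it was 0.25, with 4 higher and 2 lower. APCDD1, a Wnt inhibitor, stood at 18.1, 17.6 and 19.3 CPM against 12.1, 12.6 and 11.8 CPM (log2 fold change 0.65 ± 0.06, edgeR adjusted p = 2.88e-06). LEF1, a Wnt effector, stood at 473, 515 and 525 CPM against 509, 534 and 530 CPM (log2 fold change 0.00 ± 0.04), and AXIN2, a feedback inhibitor, at 2.55, 3.11 and 3.40 CPM against 3.52, 3.77 and 3.81 CPM (edgeR adjusted p = 0.0922). Of the TLE co-repressors, TLE1 was lower, at 26.0, 27.2 and 27.9 CPM against 30.2, 34.0 and 31.8 CPM (-0.18 ± 0.05, edgeR adjusted p = 0.013). TLE6, TLE2, TLE5 and TLE4 were higher, by 0.83, 0.47, 0.23 and 0.20.

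Signalling lists were mixed. Of 28 immediate-early and feedback genes 10 were higher and 6 lower, with the early growth response factors EGR1, EGR2 and EGR3 higher by 1.23, 1.27 and 1.45 at levels under 6 CPM. Of 32 interferon genes 12 were higher and 7 lower, with OAS1 and MX1 higher by 0.61 and 0.51 and IFI27 at -0.78. Of 13 NF-kB targets 4 were higher and 2 lower, CD69, an activation antigen, among the former at 0.62 ± 0.10. The interferon and NF-kB medians were 0.13 and 0.11, the latter -0.06 with the GC and length trends removed, -0.0029 without replicate 1 of the other set and 0.0061 without replicate 3 of the dexamethasone set.

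Measures of the libraries themselves also separated the sets. Reads that matched no annotated exon on the counted strand made up 19.2% to 19.7% of reads in the dexamethasone set and 26.4% to 28.3% in the other set. They include reads in exons on the opposite strand. Counts in mitochondrial genes were 0.761% to 1.03% against 0.647% to 0.685%, in histone genes 2.07% to 2.13% against 1.74% to 1.89%, and in sense-intronic genes 0.0779% to 0.0851% against 0.101% to 0.107%. Of 16 such measures 14 did not overlap between the sets, each with an exact 2-sided permutation p = 0.1, the smallest that 3 against 3 samples allow (0.114 adjusted over the 16). The share of counts in protein-coding genes was 92.7% to 93.5% against 93.2% to 93.3%, which overlapped. The part of these measures in the gene differences was not tested beyond the values that follow.

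**Figure D3:**
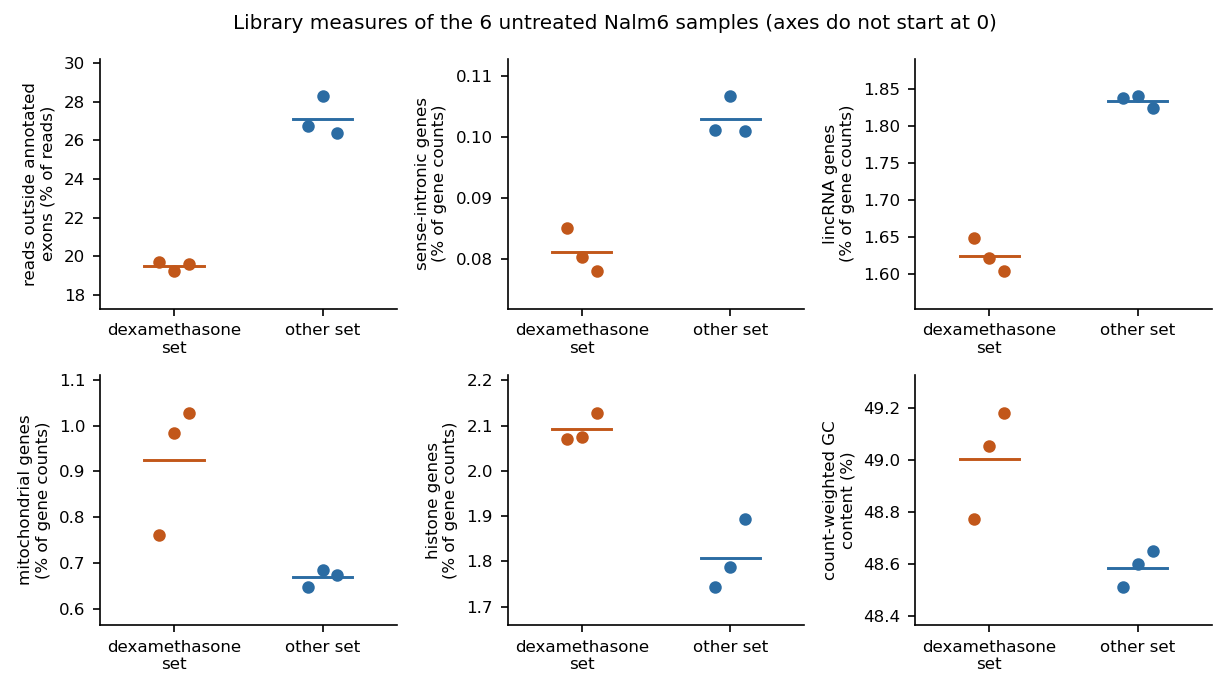
Library measures in the 6 untreated Nalm6 samples, each panel on its own axis that does not start at 0, with points for samples and bars for the mean of 3. The sets do not overlap in any of the 6 panels. The panel labelled reads outside annotated exons counts reads that matched no exon on the counted strand. These are 19.2% to 19.7% in the dexamethasone set and 26.4% to 28.3% in the other set.

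Called genes of several non-coding classes were mostly lower, although bidirectional promoter RNAs were not (9 higher and 3 lower of 35, median 0.21). Of 392 sense-intronic genes tested, 10 were higher and 185 (47.2%) lower, with a median log2 fold change of -0.51. Of 273 TEC genes, loci whose transcripts await experimental proof, 142 were lower, with a median of -0.48, and of 727 processed pseudogenes 253 were lower, with a median of -0.38. All 9 nuclear long non-coding RNAs tested were lower, with a median of -0.66 that was -0.34 with the GC and length trends removed. MALAT1, a nuclear speckle RNA, stood at 1174, 1530 and 1639 CPM against 2942, 2935 and 2972 CPM (log2 fold change -0.97 ± 0.09, edgeR adjusted p = 3.38e-06). KCNQ1OT1, a long antisense transcript of an imprinted locus, stood at 38.0, 38.0 and 38.8 CPM against 95.4, 104 and 91.7 CPM (-1.28 ± 0.05, edgeR adjusted p = 4.23e-09), and FTX and PVT1 were at -0.89 and -0.79.

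RNAs that end without a poly(A) tail were not all lower. Of 46 replication-dependent histone genes 37 (80.4%) were higher and none lower, with a median log2 fold change of 0.29. H2AC14 stood at 403, 408 and 398 CPM against 294, 290 and 315 CPM (0.49 ± 0.04, edgeR adjusted p = 1.68e-06). By gene type, 27 of 97 snRNA genes (27.8%) were lower and 4 (4.12%) higher, with a median of -0.29. Among 134 snoRNA genes 28 (20.9%) were lower and 8 (5.97%) higher, with a median of -0.15. Over all genes tested 24.4% were lower and 25.8% higher. In a list of 15 small non-coding RNAs 3 were higher and 5 lower: SNORD3A, the U3 small nucleolar RNA, stood at 0.56 ± 0.14 and the spliceosomal RNU4-2 at -0.62 ± 0.12, and the list's median of -0.14 became 0.11 with the GC and length trends removed and -0.033 without replicate 2, or -0.050 without replicate 1, of the other set. Without replicate 1 or 3 of the dexamethasone set it was -0.092 or -0.071. Spliced host genes of small nucleolar RNAs were higher in 10 of 14, with GAS5 at 0.33 ± 0.05 and none lower.

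The difference moved with the GC content and length of the gene. Over 12041 protein-coding genes, the log2 fold change had a Spearman correlation of 0.25 with GC content and of -0.29 with transcript length, as a description across genes that share the same 6 libraries. The median log2 fold change rose from -0.04 in the decile of lowest GC content to 0.17 in the highest. It fell from 0.15 in the decile of shortest transcripts to -0.15 in that of the longest, where 676 of 1204 genes were lower. In the treated Nalm6 samples described next, the same medians ran from -0.09 to 0.26 with GC content and from 0.11 to -0.13 with length.

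**Figure D4:**
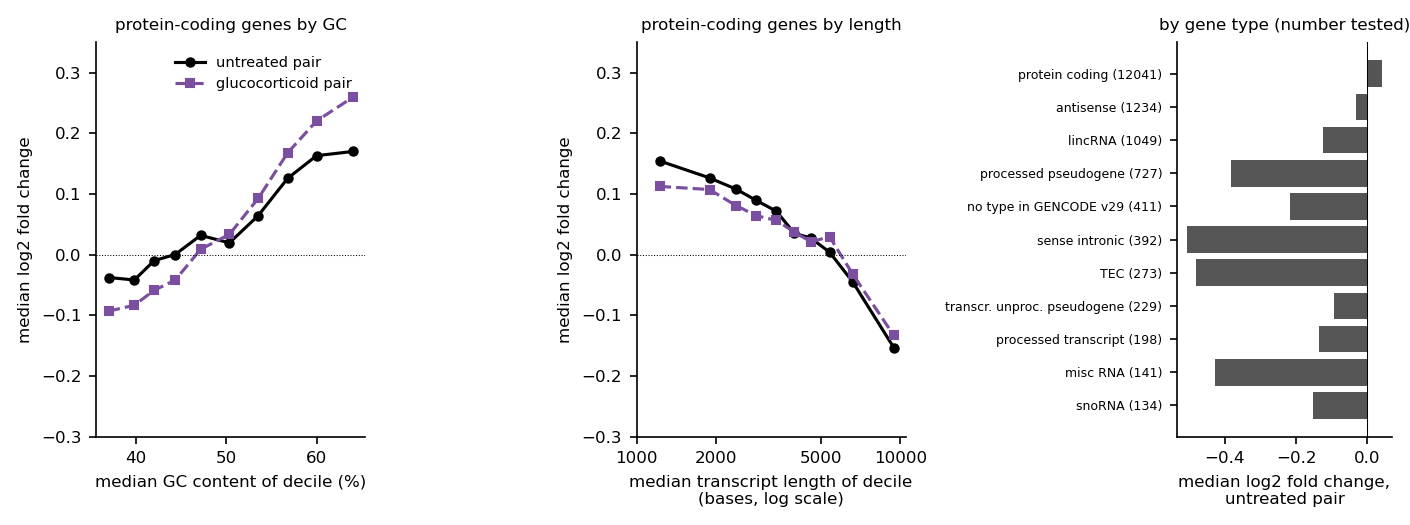
Median log2 fold change, dexamethasone set minus other set, of protein-coding genes in deciles of GC content (left) and transcript length (middle, log axis) for the untreated and the glucocorticoid-treated pair of groups, and by gene type for the untreated pair (right, number of genes tested in brackets). In the untreated pair the medians run from -0.04 to 0.17 with GC content and from 0.15 to -0.15 with length, and sense-intronic genes lie at -0.51.

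Most markers of other cell types were low, but not all. Among the T-cell markers, ZAP70 stood at 76.5, 82.7 and 86.7 CPM against 75.1, 75.0 and 72.5 CPM. LCK was at 34.5, 31.4 and 35.1 CPM against 30.9, 31.5 and 29.5 CPM. Of 17 T-cell markers 6 were tested, and 4 were higher, PTCRA, the pre-T-cell receptor alpha chain, by the most at 10.7, 8.95 and 12.3 CPM against 3.10, 4.06 and 3.12 CPM. The summed level of the 17 was 136 to 148 CPM against 117 to 124 CPM, most of it from ZAP70 and LCK. The defining T-cell genes CD3D, CD3E, CD3G, CD2, CD7 and CD5, listed after their values were seen, had 2 to 10 counts each in replicate 1 of the dexamethasone set and 0 in the other 5 samples. TCF7 had 27 counts in that sample and 1 or 2 in each of the others. Those counts were 0.0237% to 0.169% of the levels in untreated CEM cells. The 10 myeloid markers summed to 14.3 to 15.4 CPM against 7.49 to 9.48 CPM, with LYZ and CD33 higher by 1.29 and 0.76, while S100A8 and FCGR3A were at 0 in all 6 samples. Of these 10 markers 4 were tested, with 3 higher, 0 lower and 1 not called. CD14, named after its values were seen, had 5, 2 and 8 counts against 12, 12 and 14. CD68, named likewise, had 3, 2 and 1 counts against 8, 6 and 7. These are raw counts, and the dexamethasone set was sequenced less deeply. Erythroid markers summed to under 1 CPM, none was tested, and HBB had 21 counts in replicate 2 of the other set. Of 9 stromal and epithelial markers COL1A1 (1.51) and PDGFRB (1.03) were higher and COL3A1, EPCAM and KRT19 were at 0 in all 6 samples. The part of these markers in the other differences was not tested.

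The same sets can be compared in treated Nalm6 cells, in samples that share no library with the comparison above, although drug and dose then differ with the set. Between 3 dexamethasone and 3 prednisolone samples of Nalm6, 9060 of 17833 genes passed the test (50.8%). In the dexamethasone set 26.4% were higher and 24.4% were lower. Of 1071 genes with a called difference of at least 2-fold between the untreated sets that were tested here, 769 (71.8%) were called in the same direction and 3 in the opposite one. Log2 fold changes of the 2 comparisons had a Pearson correlation of 0.76 across 16919 genes, as a description. JCHAIN rose by 2.64, DDIT4L by 1.95 and VPREB3 by 1.81 on the log2 scale, and GP5 stood at -2.38.

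In the cells labelled TLE1 KO, 6061 of 16360 genes passed the same test between dexamethasone and prednisolone (37.0%), with 19.0% higher and 18.1% lower under dexamethasone. The TLE1 transcript was present in these libraries, at 57.3 ± 1.84 CPM and 62.5 ± 7.38 CPM, so its level does not check the label. Of 864 genes at least 2-fold different between the untreated sets, 527 (61.0%) were called in the same direction and 4 in the opposite one. JCHAIN stood at 3.60, VPREB3 at 2.28, DDIT4L at 1.85, CD22 at 1.17 and GP5 at -2.05.

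Medians of the HIF, glycolysis, ATF4 and metallothionein lists had another sign in the TLE1 KO cells, as did those of the mitochondrial genome (0.33 and -0.21), DNA replication (-0.08 and 0.13) and mature B or plasma cell (0.34 and -0.16) lists. HIF targets had a median of 0.17 between the untreated sets, 0.12 in treated Nalm6 (10 higher, 2 lower of 23) and -0.16 in TLE1 KO (2 higher, 11 lower). VEGFA stood at -0.41, 0.18 and -0.63, and PFKFB4 at 1.02, 0.67 and -0.25. Glycolysis had medians of 0.22, 0.15 and -0.08, and LDHA stood at -0.09, -0.02 and -0.50. ATF4 genes were at -0.16, -0.09 and 0.12, and metallothioneins at 0.53, 0.41 and -0.34. Mitosis genes (0.25, 0.07 and 0.25), histones (0.29, 0.12 and 0.29), B-cell precursor genes (0.20, 0.20 and 0.28), endoplasmic reticulum stress genes (-0.13, -0.22 and -0.48), sense-intronic genes (-0.51, -0.48 and -0.47) and nuclear long non-coding RNAs (-0.66, -0.34 and -0.25) kept the sign of their medians in all 3. Differences between these medians were not tested.

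**Figure D5:**
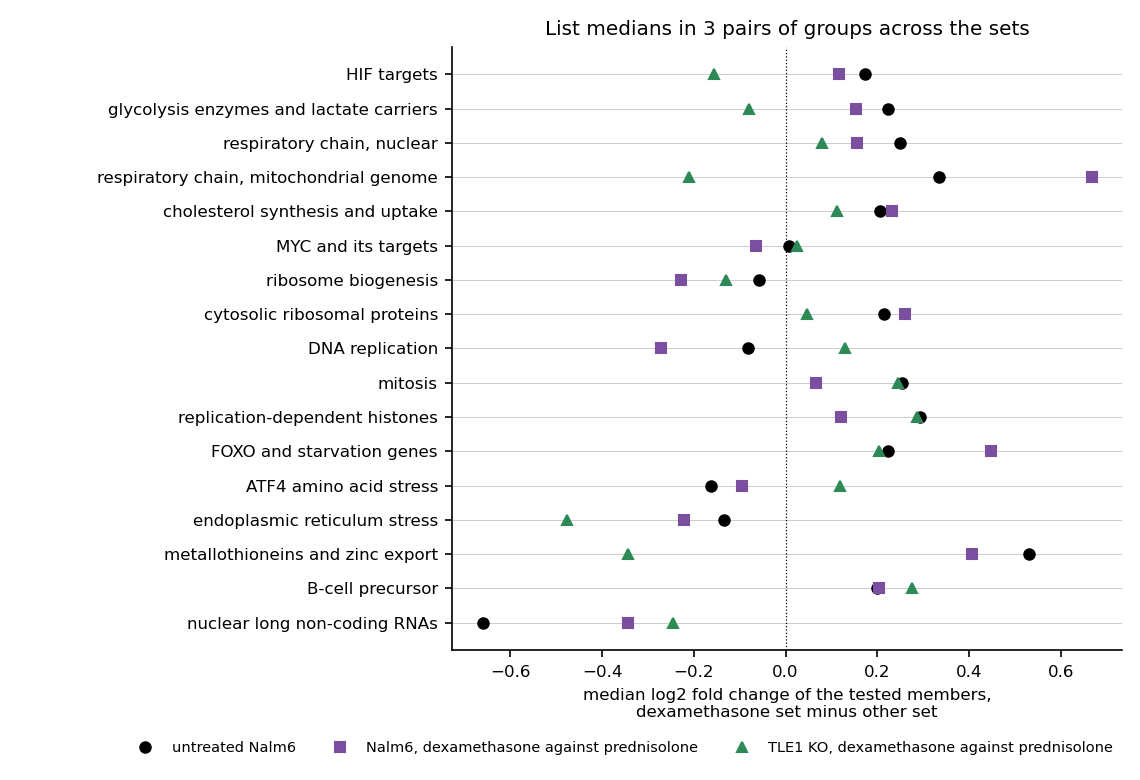
Median log2 fold change, dexamethasone set minus other set, of 17 gene lists in 3 pairs of groups that share no library: untreated Nalm6, Nalm6 under dexamethasone against prednisolone, and TLE1 KO cells under the same drugs. HIF targets lie at 0.17, 0.12 and -0.16, whereas nuclear long non-coding RNAs lie at -0.66, -0.34 and -0.25.

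Over all genes, the difference between the untreated sets had correlations near 0 with drug responses that share no library with it. Its Pearson correlation was -0.06 with the prednisolone response of TLE1 KO cells (n = 16235), 0.01 with the prednisolone response of CEM (n = 15153) and 0.05 with the CHIR-99021 response of CEM (n = 15086). CEM cells had received 10 µM prednisolone or 2 µM CHIR-99021, and TLE1 KO cells 5 µM prednisolone, each for 24 h. Genes at least 2-fold different between the untreated sets are given apart. Of 946 such genes, 96 were called in the same direction in the TLE1 KO response and 182 in the opposite one. Over all genes that response called 6716 of 16235. Among protein-coding genes at least 2-fold different, 48 of 286 had the same direction and 112 the opposite one. In CEM the same and the opposite direction were called in 93 and 99 of 697 with prednisolone, and in 29 and 27 of 677 with CHIR-99021. Over all genes 6973 of 15153 and 1613 of 15086 were called. The protein-coding counts were 74 and 49 of 236 with prednisolone, and 23 and 24 of 231 with CHIR-99021. The part of drug response genes in the set difference was not tested.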

How the data were processed

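Total RNA of cell lines was sequenced, and per the labels' protocols a column kit and a standard Illumina preparation were used. The authors deposited 1 table of gene counts per sample, whose 4 columns give the gene and counts without strand and on either strand. The submitters' processing notes name hg19, Bowtie2 and DESeq2 without roles, and the aligner and annotation are not given in the sources used here. The layout of the tables is that of STAR's gene counts. Column 4, which held 13.8 to 14.7 times the counts of column 3 in the 6 samples, was used. The 4 rows that name no gene were left out of library sizes and tests. Of these, reads matching no exon on the strand of column 4 made up 19.2% to 28.3% of reads and multiply mapped reads 5.08% to 5.72%. Gene totals of the 6 samples were 32501109 to 61930057, and a zero allows up to 3 counts, for counting error only.

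Symbols came from the gene name table supplied with the reference, and gene types, GC content and length from GENCODE v29, matched by identifier for 97.65% of genes tested. Of 847 gene list entries 832 matched. The treatment text of some samples conflicts with their titles, and the titles were followed. Genes passing filterByExpr were fitted with edgeR 4.0.16 (R 4.3.3, TMM, quasi-likelihood test), with Benjamini-Hochberg adjustment over all genes tested and a call at 0.05. Library measures were compared by an exact permutation test (scipy 1.17.1). Other versions were limma 3.58.1, DESeq2 1.42.0, pandas 2.3.3 and numpy 2.4.6. The fits were tested on simulated data.

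The members and lists were chosen with earlier results of these data known, so lists are given by counts and medians without a set test. Genes named are the 12 largest rises and 12 largest falls with mean log2 CPM of at least 1 and no overlap, up to 4 called members per list with the largest change, genes at 3 counts or fewer in every sample of one set (up to 5 per direction), and a fixed set of pathway genes; others are marked as chosen after their values were seen. Alternatives covered 20 settings: other size factors, DESeq2, count filters, robust moderation, a replicate block, the unstranded column, all 15 parental Nalm6 samples, GC and length trends, thinning, protein-coding genes alone and each replicate left out. The setting with both GC and length trends removed and that with protein-coding genes alone were chosen after seeing the data. Same-numbered samples of the sets had correlations of deviations of 0.0867, 0.00573 and 0.0587, and differently numbered ones -0.0884 to 0.0298. All were near 0, and the numbers were not taken as pairs. Values of a few genes covered by the naming rule are not reported here.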

Additional observations from a re-analysis of the deposited data

How the results depend on the processing

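Between 7227 and 10746 genes differed between the untreated sets under the alternatives that tested all gene types, and DESeq2 called 7640. With protein-coding genes alone 6450 differed. Genes past a 2-fold difference numbered 1236, but 553 with at least 10 counts required in every sample, 2053 with the unstranded column and 375 with protein-coding genes alone. Leaving out 1 sample gave 7227 to 9378 genes, of which 1183 to 1389 were past 2-fold. With the replicate number as a block 9397 genes differed, 8715 of them shared with the fit without it, and 1248 were past 2-fold. The labels do not say whether the numbers pair the samples. Of the 182 named genes, 149 kept direction and call in all 20 alternatives and 33 did not. The cause of each change below was not tested.

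Mature B or plasma cell genes had a median of 0.34, against 0.31 with upper-quartile factors, 1.30 without a filter, 0.0371 with at least 10 counts, 0.51 unstranded, 0.46 with all 15 parental samples, 0.41 and 0.28 with the GC and the length trend removed, 0.19 after thinning, 0.85 with protein-coding genes alone and 0.34 to 0.47 with 1 sample left out. DNA replication genes, at -0.0824, had -0.109 with upper-quartile factors, -0.104 with at least 10 counts, -0.0311 unstranded, -0.0691 and -0.131 with the GC and the length trend removed, -0.124 with both removed, -0.0936 after thinning, -0.122 with protein-coding genes alone and -0.0871 to -0.0576 with 1 sample left out. Ribosome biogenesis genes, at -0.0570, had -0.0840 with upper-quartile factors, -0.0793 with at least 10 counts, 0.00668 unstranded, -0.0893 and -0.118 with the GC and the length trend removed, -0.131 with both and -0.0976 with protein-coding genes alone. MYC and its targets, at 0.01, had -0.0194 with upper-quartile factors, 0.0419 unstranded, -0.0785 with the length trend removed, -0.0338 with both trends removed and -0.0327 with protein-coding genes alone. Glycolysis, at 0.22, had 0.26 unstranded, 0.15 with the length trend or both trends removed, 0.18 with protein-coding genes alone and 0.19 to 0.26 with 1 sample left out. Mitosis, at 0.25, had 0.31 unstranded, 0.33 and 0.18 with the GC and the length trend removed and 0.26 to 0.30 with 1 sample left out. B-cell precursor genes, at 0.20, had 0.26 unstranded and 0.14 with both trends removed.

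Of called genes, 2 changed direction: HIF1AN to 0.0560 with the length trend and 0.0536 with both trends removed, and ZAP70 to -0.0457 with both removed. Among genes without a call, LEF1 went to -0.0219 with upper-quartile factors, -0.000407 without a filter, -0.0174 with at least 10 counts, -0.0731 with the length trend and -0.0637 with both trends removed, -0.00256 after thinning and -0.0352 with protein-coding genes alone, and ran from -0.0205 to 0.0451 with 1 sample left out. SLC2A1 went to 0.0392 and MCM2 to 0.0676 unstranded, and with 1 sample left out they ran from -0.0722 to 0.0419 and from -0.0419 to 0.00985. TXNIP went to 0.0453 unstranded and 0.0443 with the GC trend removed, and ran from -0.0800 to 0.0382 with 1 sample left out. NR3C1 went to 0.00956 with the GC trend and 0.00291 with both trends removed, and IGLL1 to -0.0803 and -0.00375.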

Other observations

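Among the 8774 called genes of 17478 tested, 22 were at or below 3 counts in every sample of the dexamethasone set. The number of called genes at or below 3 counts in every sample of the other set was 0. The 22 genes could pass the filter on low counts only through the other set, where they were higher. Their direction was therefore fixed by the filter, and the counts of 22 and 0 were not tested against each other. The 22 genes low in the dexamethasone set include the pseudogenes PCDHGB9P and NDUFA9P1 and the microRNA gene MIR1205. In the other set PCDHGB9P had 27, 24 and 22 counts. The log2 fold changes of PCDHGB9P, NDUFA9P1 and MIR1205 were -2.51 ± 0.37, -2.65 ± 0.40 and -2.45 ± 0.43. Pseudogene counts are uncertain because of near-identical copies, and the dexamethasone set was sequenced less deeply.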
